A study of Mus musculus with 4 samples.

Results

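The Dlk1-Meg3 imprinted domain was examined as a stretch of mouse chromosome 12 that holds the starts of both genes and the intergenic control region between them. Its members were the CG sites of that stretch, with both strands of a site added together, that had at least 5 reads in each of the 4 libraries, the first at 110683864 and the last at 110825058 (mm9). Of 2205 CG sites listed in the domain, 568 (25.8%) met this minimum, beside 2638319 of 21342492 listed on chromosomes 1 to 19, X and Y. The sites were divided by position into the intergenic control region (44 sites from 110765001 to 110768987), the Dlk1 start (100 sites from 110690901 to 110691996), the Meg3 start (67 sites from 110778205 to 110780190) and the rest (357 sites). Each start was taken as 1000 bp on either side of the approximate first base of the gene.

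The study compared wild-type sperm prepared in different ways and asked, for DNA methylation, whether sperm that completed the replacement of histones by protamines differ from motile sperm. The DNA came from sperm of adult males, C57BL/6 per the labels, all without any engineered allele or treatment of the animals. Swim-up sperm are those that swam to the top of the medium, a fraction selected for motility. By the paper's measurements only a minor share of them had not completed the replacement, so most sperm of both fractions had. HRCS (histone replacement-completed sperm) are heads of sperm from caudal epididymis and vas deferens, freed from tails by sonication and pelleted through dense Percoll. Each fraction has 2 libraries, and whether these came from separate males is not given in the sources used here, so the spread between them may be partly technical. DNA methylation was read by TGBS, in which captured genomic DNA is bisulfite-treated and sequenced so that each read calls each CG it covers as methylated or not.

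Dlk1 encodes a transmembrane protein related to Notch ligands and is expressed from the chromosome inherited from the father, while Meg3 is a long noncoding RNA expressed from the chromosome inherited from the mother. The intergenic control region is methylated on the paternal chromosome, and this mark is laid down in the male germline before sperm are formed. The Meg3 promoter is also methylated on the paternal chromosome in the body of the offspring, a mark that is acquired only after fertilization and depends on the control region.

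Sequences just before both starts are shown because the levels in and just after them were low. They are the 250 bases before each start on the plus strand from RefSeq (GRCm38.p6), chr12:109452573-109452822 for Dlk1 and chr12:109540746-109540995 for Meg3, with each CG in capitals.
Dlk1: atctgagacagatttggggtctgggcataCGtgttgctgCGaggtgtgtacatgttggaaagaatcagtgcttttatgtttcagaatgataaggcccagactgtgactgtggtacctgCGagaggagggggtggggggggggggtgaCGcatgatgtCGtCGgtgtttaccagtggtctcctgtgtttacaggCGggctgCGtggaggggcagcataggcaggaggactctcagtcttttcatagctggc
Meg3: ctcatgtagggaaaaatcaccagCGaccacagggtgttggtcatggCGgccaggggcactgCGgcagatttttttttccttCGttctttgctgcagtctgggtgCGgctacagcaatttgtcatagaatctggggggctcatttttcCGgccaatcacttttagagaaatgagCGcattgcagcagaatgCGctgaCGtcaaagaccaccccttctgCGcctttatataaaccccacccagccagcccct
The spacing of the CGs in the 300 bases around each start matched the listed mm9 CG sites at 1 place in the genome for either gene, which put the first base of Dlk1 at 110691033 and that of Meg3 at 110779206 in mm9. All distances given here are from these bases. The Dlk1 stretch has 8 CGs and the Meg3 stretch has 10, and 43.0% and 37.8% of 32851 RefSeq promoters hold at least as many in the same length.

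Levels are the share of methylated reads, for which the smaller of the 2 unnamed counts was taken. Read that way, 99.7% of all 22208 windows of 200 bp with 20 or more CGs were at 25% or less in swim-up sperm (median 1.05%), and CG islands are known to be mostly free of methylation in sperm. Coverage of the domain was uneven. A read gives a call at every CG that it covers, and the 568 sites had 13742 and 10857 calls in the swim-up replicates, with 15647 and 13861 for HRCS. The median was 22 and 18 reads per site in swim-up sperm, against 25 and 23.5 in HRCS, so that a single read moves a typical site by several percentage points. Nearly all sites of the Dlk1 start (100 of 107 listed) and of the Meg3 start (67 of 69) were used, against 44 of 112 in the control region and 357 of 1917 in the rest. Of the 2205 listed sites, 742 had no read in any library. Intervals below count sampling error of calls only, and they are too narrow where a read covers several CGs or where PCR copies were counted.

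The control region was almost fully methylated in both fractions. Mean levels there were 97.2% and 98.3% for swim-up replicates 1 and 2 and 96.1% and 96.2% for HRCS replicates 1 and 2 (97.7% ± 0.776 and 96.2% ± 0.0401, SD, n = 2). HRCS minus swim-up sperm was -1.56 points and the libraries did not overlap, but p was 0.333 in the two-sided exact permutation test over libraries, the smallest that 2 against 2 allow, and 1 after Benjamini-Hochberg adjustment over 5 regions. Without swim-up replicate 2 the difference was -1.01 points. All 44 sites had a mean level of at least 80%, from 84.8% to 100%, and 8 sites were methylated in every read, among them 110768360 with 17, 10, 21 and 7 reads. The sites varied little among themselves (SD over sites 2.96 points). The lowest site, 110767342, stood at 100% and 94.7% in swim-up sperm (18 of 18 and 18 of 19 reads) and at 62.5% and 81.8% in HRCS (20 of 32 and 18 of 22 reads). Both HRCS libraries were lower there than either swim-up library, and over the region the fractions did not overlap at 10 of 44 sites (22.7%), beside 94 of 568 sites in the domain (16.5%) and 15.8% of all sites of the series that met the read minimum. Of the 68 listed sites of the control region below the read minimum, 19 had no read in any library. At the others the calls, added together over sites, were also mostly methylated. The methylated share was 84.8% of 125 calls for swim-up replicate 1 and 96.9% of 161 for swim-up replicate 2. For HRCS replicate 1 it was 97.7% of 214 calls, and for HRCS replicate 2 it was 99.3% of 136.

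The level at the control region was set beside that of the H19 control region (chromosome 7, 37 sites from 149766003 to 149766998), another region that is methylated in the male germline. It stood at 97.7% and 97.4% in swim-up sperm and at 97.0% and 96.2% in HRCS. The Dlk1-Meg3 control region differed from it by -0.149 ± 0.764 points (SD, n = 4 libraries), with a range of -0.898 to 0.862 that includes either sign (two-sided exact sign-flip permutation test, p = 0.625).

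**Figure D1:**
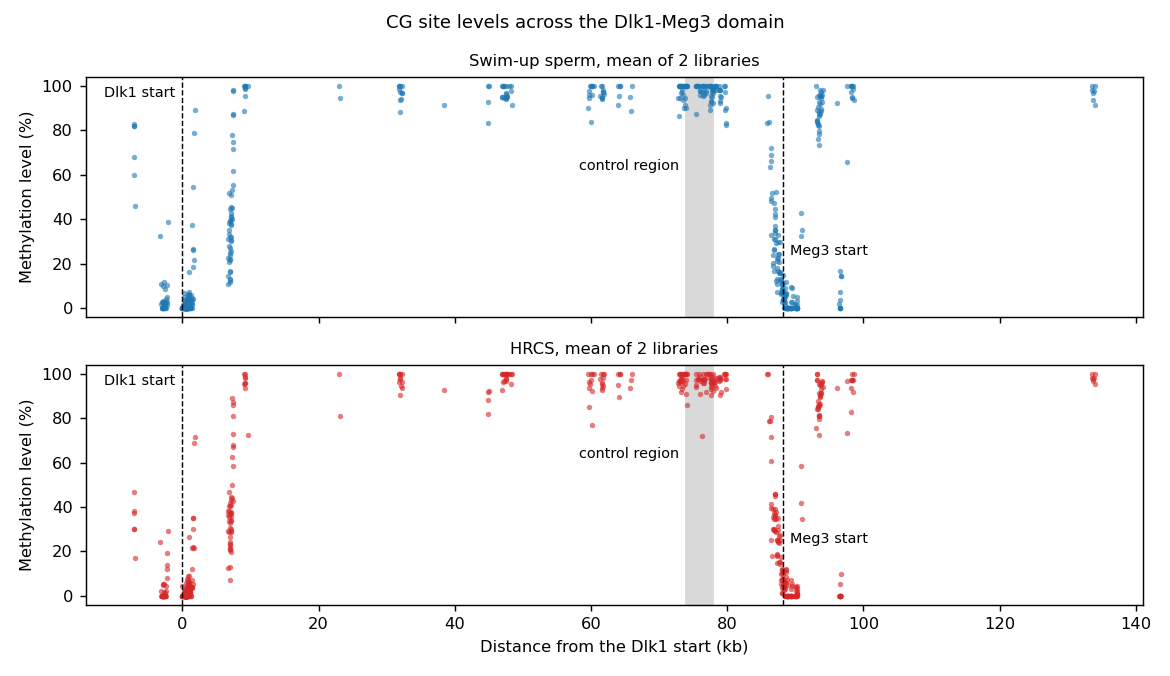
Methylation level (%) of the 568 CG sites against distance from the Dlk1 start (kb), for swim-up sperm above and HRCS below; each point is the mean of 2 libraries, the dashed lines mark the gene starts and the grey band the control region. Most sites between about 9.02 kb after the Dlk1 start and -2.07 kb from the Meg3 start lie near the top in both fractions. Sites at the Dlk1 start lie near 0 and most of those at the Meg3 start at 20% or less.

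The CG-rich start of Dlk1 was almost free of methylation. Its mean level was 1.45% and 1.33% in swim-up sperm, against 1.09% and 1.64% in HRCS, a difference of -0.025 points with overlapping libraries (exact permutation p = 1). Of the 100 sites, 99 had a mean level of at most 20%, and 41 had no methylated read in any library, the first of them 110690901 with 14, 7, 10 and 15 reads. The highest site, 110691996, lay 0.963 kb after the start and was at 5.88%, 26.3%, 21.6% and 31.2%, in the order swim-up replicates 1 and 2, then HRCS replicates 1 and 2. In the 250 bases printed above, 6 of the 8 CGs had enough reads. Their calls were 0 of 92 and 0 of 83 methylated in swim-up sperm and 0 of 91 and 2 of 114 in HRCS. With calls taken as independent, the counts of 0 allow a level of up to 3.26%, 3.61% and 3.30%. Neighbouring CGs share reads, so these limits are too low. At the single CG with the fewest reads (14, 7 and 10 in these libraries) the limit is 21.4%, 42.9% and 30%. Both methylated calls fell on the CG at base 194 of the printed stretch in HRCS replicate 2.

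Sites with little methylation went on beyond the Dlk1 start as defined here, and others lay upstream of it. A first run of 99 sites, each with a mean of at most 20%, went from 110690901 to 110691993 (mean 1.18%), and after 1 site above 20% a second run of 18 went on to 110692420, 1.39 kb after the start (mean 2.87%). Sites from 1000 to 1500 bp after the start, most of them in this second run, averaged 5.06% ± 1.29. The 7 sites from 1500 to 2000 bp averaged 40.6% ± 6.09 (SD over 4 libraries). A separate unmethylated run of 32 sites lay upstream, from 110687850 to 110688761 (-3.18 to -2.27 kb, mean 2.69%). It includes 110688048, which had no methylated read among 17, 21, 11 and 24.

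A CG-dense stretch further downstream was neither methylated nor unmethylated. The 48 sites from 110697736 to 110698516, which begin 6.70 kb after the Dlk1 start, stood at 46.0% and 34.8% in swim-up sperm and at 38.2% and 42.1% in HRCS (40.4% ± 7.90 and 40.1% ± 2.79). The spread between the swim-up replicates was wider than the gap between fractions, which was -0.232 points (exact permutation p = 1). Within the stretch, the means of bins of 200 bp differed with distance from the start. The mean of the 4 libraries was 26.2% ± 11.2 from 6600 to 6800 bp, 29.2% ± 7.87 and 32.8% ± 5.25 in the next pair of bins, 61.1% ± 6.41 from 7200 to 7400 bp and 75.7% ± 9.74 in the last. Over the first 3 bins the libraries did not move together, since HRCS replicate 2 went from 40.4% to 37.0% and 30.1% while the level of the other libraries was higher in each next bin. From the third bin to the fourth the level was higher in all 4 libraries, and from there to the last in all but HRCS replicate 1, which was at 66.5% and 66.3%. In that last bin, of 5 sites, swim-up sperm were at 81.2% and 86.5% and HRCS at 66.3% and 68.7%, with no overlap. Intermediate levels were less common in windows with more CGs. In swim-up sperm, 4.45% of all windows with 6 to 9 listed CGs and 2.00% with 10 to 14 had a level between 25% and 50%. Apart from the window named next, those of the stretch hold 3 to 13 listed CGs. Among all 17627 windows of 200 bp with 15 to 19 listed CGs, 0.545% had a level between 25% and 50% in swim-up sperm, and the window 110698001 to 110698200 with 17 CGs, the only one of the domain in this class, had 33.1% ± 9.52 there and 30.4% ± 1.72 in HRCS.

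**Figure D2:**
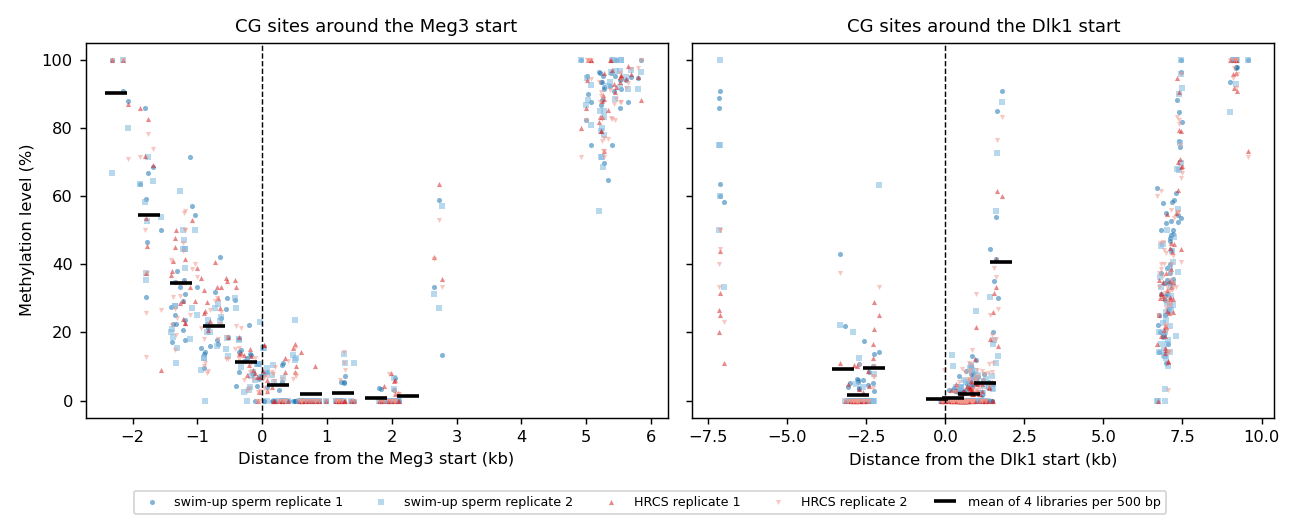
Methylation level (%) of single CG sites against distance (kb) from the Meg3 start (left) and from the Dlk1 start (right); each point is 1 site in 1 library and each black bar is the mean of the 4 libraries over a bin of 500 bp. The level falls in steps from 90.3% to 11.2% along the approach to the Meg3 start and is 4.61% in the first bin after it. Over the Dlk1 start the level is near 0, and it reaches 40.6% between 1500 and 2000 bp after that start.

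The start of Meg3 was low but not uniformly so. Its mean level was 8.74% and 9.21% in swim-up sperm, against 12.6% and 8.41% in HRCS (8.97% ± 0.332 and 10.5% ± 2.96). HRCS was 1.53 points higher on average, but HRCS replicate 2 was the lowest of all 4 libraries (exact permutation p = 1), and without HRCS replicate 1 the difference was -0.563 points. Of the 67 sites, 55 had a mean of at most 20% and 12 were between 20% and 80%. The highest was the outermost upstream site, 110778205, with 33.3% and 25% in swim-up sperm, against 38.9% and 36.4% in HRCS, and the lowest included 110779770, with no methylated read in 7, 15, 7 and 6 reads.

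The sites of the Meg3 start followed a gradient with distance. From upstream, the means of the 4 libraries in bins of 500 bp were 90.3% ± 5.80 between -2500 and -2000 bp, 54.3% ± 5.15, 34.6% ± 1.82, 21.7% ± 5.64 and 11.2% ± 1.74 in the bin that ends at the start. After the start they were 4.61% ± 1.13, 1.91% ± 1.43, 2.27% ± 1.64, 0.846% ± 0.637 and 1.37% ± 0.404 up to 2500 bp. Each bin before the start was lower than the one before it in all 4 libraries. The 10 CGs printed above lie in the last part of this slope and all had enough reads. Their mean level was 9.78% and 8.37% in swim-up sperm, against 7.98% and 5.03% in HRCS, with single values between 0 and 23.1%. The longer run of sites at 20% or less went from 110778847 to 110781316, a span of 2470 bp with 76 sites and a mean of 3.77%, from -0.359 to 2.11 kb around the start. Upstream of it, a short run of 5 such sites went from 110778312 to 110778377 (mean 17.0%).

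The control region stood above both gene starts in every library. It was 95.6 ± 1.04 points above the Dlk1 start (SD, n = 4, range 94.6 to 96.9) and 87.2 ± 2.50 points above the Meg3 start (range 83.5 to 89.1). It was 39.2 ± 1.51 points above the rest (range 37.8 to 41.3). In the two-sided exact sign-flip permutation test p was 0.125 for each of these, the smallest value that 4 libraries can give, and 0.167 after Benjamini-Hochberg adjustment over 4 contrasts. Whether these differences themselves differ between fractions could not be shown with 2 libraries each. HRCS minus swim-up sperm was -1.54, -3.09 and -0.722 points for these 3 differences (exact permutation p = 0.333, 0.333 and 1). The second was -0.971 without HRCS replicate 1 and -5.21 without HRCS replicate 2, and the first was -0.925 without swim-up replicate 2.

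**Figure D3:**
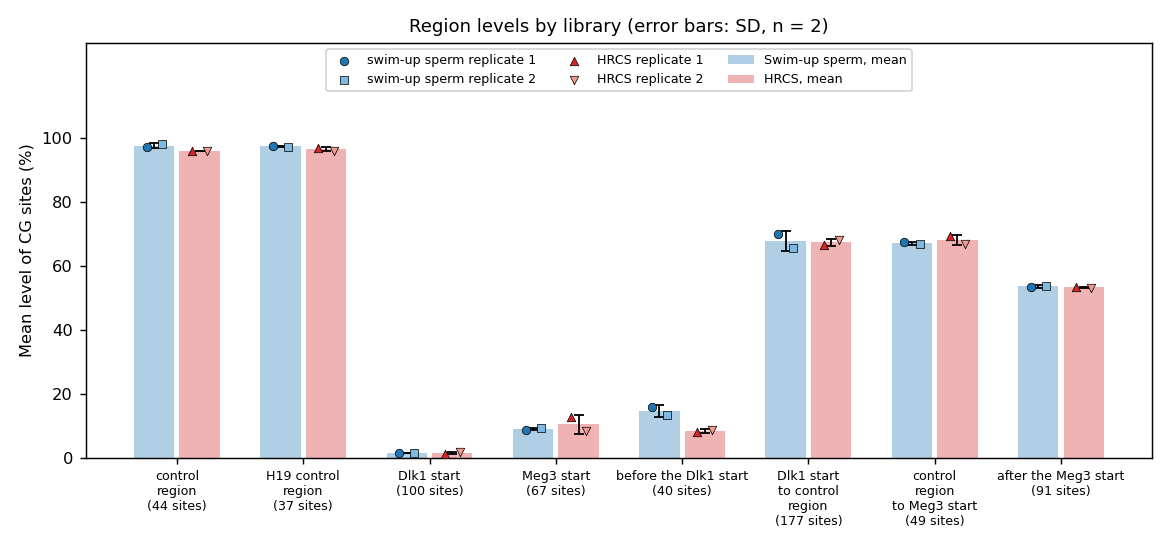
Mean methylation level (%) of the CG sites of each region, with 1 point per library, bars for the mean of the 2 libraries of a fraction and error bars for their SD. Both control regions lie between 96.1% and 98.3%, both gene starts between 1.09% and 12.6%, and the fractions lie close together in all regions but the sites before the Dlk1 start.

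High methylation was not limited to the control region. An unbroken run of 168 used sites with means of at least 80% reached from 110700048, 9.02 kb after the Dlk1 start, to 110777137, -2.07 kb from the Meg3 start, with a mean of 96.5%. This run spans 77090 bp and holds the control region, but it has gaps without a used site of up to 13472 bp. Of the 31 groups into which the used sites fall when a gap of over 250 bp ends a group, 23 had a mean of at least 80%, 5 of at most 20% and 3 were between. Used sites on both sides of the control region also had high means. The nearest on either side belong to groups that run on into the region, and only their sites outside it are counted here. The 25 sites from 110763840 to 110764946, before it, averaged 97.0% ± 1.86 in swim-up sperm, against 97.3% ± 0.759 in HRCS. The 6 sites from 110769059 to 110769432, after it, averaged 99.5% ± 0.147 and 96.1% ± 1.22, and the next 8 sites, from 110769888 to 110770149, averaged 96.3% ± 3.34 and 96.2% ± 0.721. The 7 sites from 110770490 to 110770848 followed with 91.8% ± 1.17 and 98.3% ± 1.55. The libraries of the fractions did not overlap in the 6 sites, where HRCS was lower, nor in these 7, where HRCS was higher. Of the 357 sites of the rest, 177 had a mean of at least 80%, 96 of at most 20% and 84 were between, whereas all 44 sites of the control region were in the highest class.

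CG density was not itself a criterion for the choice of sites, but it is not independent of that choice. The read minimum kept a larger share of sites at the gene starts than elsewhere, and a window needed at least 3 used sites. The control region had 2 windows of 200 bp with 10 to 14 listed CGs, one with 13 of which 4 were used and one with 10 of which all were used, and both were above 75% in both fractions (96.8% and 97.1% in swim-up sperm, 96.6% and 95.7% in HRCS). Of 32403 windows of this density genome-wide, 9.52% in swim-up sperm and 9.51% in HRCS were above 75%, and 86.9% in swim-up sperm were at 25% or less. The only other such window of the domain above 75% was 110784401 to 110784600, after the Meg3 start, with 12 CGs at 85.1% ± 4.45 and 84.0% ± 4.38. All 3 windows of the domain with 20 or more CGs lay at the Dlk1 start and were at 4.17% or less. Over the domain, 38.9% of sites had a mean of at least 80%, 44.0% of at most 20% and 17.1% were between, beside 30.99%, 60.8% and 8.17% of all sites of the series.

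Beyond the Meg3 start, low and high sites alternated. The 91 used sites there averaged 53.4% and 53.9% in swim-up sperm, against 53.5% and 53.2% in HRCS. As unweighted means these were the closest match between all 4 libraries of the 4 portions of the rest. With pooled calls HRCS was 2.38 points above swim-up sperm there, the widest gap of the 4 portions. After the unmethylated run, 3 sites from 110781861 to 110781986 stood at 35.2% and 38.6% in swim-up sperm, against 47.2% and 42.6% in HRCS. The 32 sites from 110784119 to 110785053, which begin 4.91 kb after the start, averaged 89.2% ± 1.25 and 89.2% ± 2.48. Runs of sites at 80% or more went from 110784119 to 110784465 (13 sites, mean 86.9%) and from 110784578 to 110787112 (16 sites, mean 93.4%). A short run of 10 unmethylated sites followed from 110787378 to 110787697, 8.17 to 8.49 kb after the start (mean 3.69%). They stood at 1.17% and 10.5% in swim-up sperm, against 1.11% and 2.00% in HRCS, so that swim-up replicate 2 carries much of the mean. The 17 sites from 110788690 to 110825058 were high again, with a mean of 97.0% but with a gap of 34985 bp, and 110824639 among them was methylated in all 20, 13, 46 and 34 reads.

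Swim-up sperm and HRCS had closely similar levels across the domain as a whole. The mean of the 568 sites was 46.2% and 44.7% in swim-up sperm, against 45.02% and 44.9% in HRCS, a difference of -0.473 points with overlapping libraries (exact permutation p = 1). Across sites, Pearson's r between the fractions' means was 0.984 over 568 sites, as a description, since neighbouring sites share reads and libraries. It was 0.968 between the swim-up replicates, 0.978 between the HRCS replicates, and 0.968 to 0.974 between single libraries of different fractions. The value for the swim-up replicates lies within the range between fractions and that for the HRCS replicates above it. The rest behaved in the same way, with 59.4% and 57.0% in swim-up sperm, against 57.1% and 57.6% in HRCS (exact permutation p = 1). In the portion between the Dlk1 start and the control region the levels were 70.1% and 65.7% against 66.7% and 68.3%, and between the control region and the Meg3 start 67.5% and 66.8% against 69.3% and 67.1%.

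Calls were then tested in windows of 200 bp with at least 3 used sites, with edgeR's quasi-likelihood test fitted on all 316993 windows of the series. None of the 78 windows of the domain passed an adjusted p of 0.05, beside 0.0041% of all windows (13), and the smallest adjusted p in the domain was 0.759. At an unadjusted p under 0.05 there were 4 of 78 (5.13%), near the 4.61% of all windows. limma on the window levels passed 0 windows in the domain and 0.0% of all windows (0) at an adjusted p of 0.05. At an unadjusted p under 0.05 limma called 9 windows of the domain (11.5%), beside 6.53% of all windows. The libraries of the fractions did not overlap in 26 windows (33.3%, 14 higher and 12 lower in HRCS), also near the 32.7% of all windows. The median difference was -0.155 points in the domain and 0.0162 points over all windows, and the median size of the difference was 1.44 and 1.27 points. Fractions differed by over 10 points in 5 windows of the domain (6.41%), beside 3.18% of all windows.

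**Figure D4:**
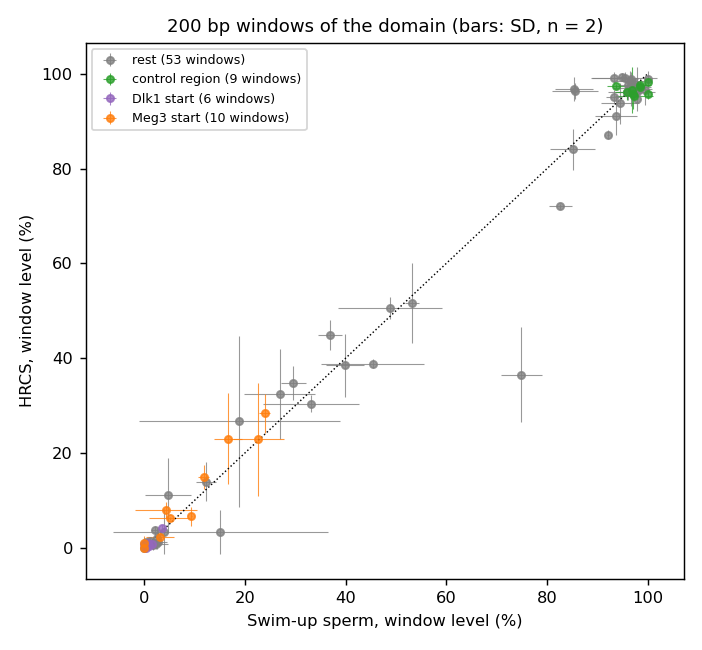
Level (%) in HRCS against level (%) in swim-up sperm for the 78 windows of 200 bp in the domain, coloured by region, with bars for the SD of 2 libraries and a dotted line of equal levels. The 9 windows of the control region cluster at the top right and 1 window, at 74.9% and 36.5%, lies far below the line.

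One place before Dlk1 stood apart from this close match. The 6 used sites from 110683864 to 110684028, which lie -7.17 to -7.00 kb from the Dlk1 start, were at 74.6% and 65.6% in swim-up sperm and at 26.4% and 40.1% in HRCS (70.1% ± 6.38 and 33.2% ± 9.75). The difference was -36.8 points, all 6 sites were lower in HRCS, and at all 6 the fractions did not overlap. Sites that were lower in HRCS without overlap made up 9.51% of the domain (54 of 568) and 7.83% of the series, but the 6 sites share reads and were picked for their difference, so nothing is read from their count. The exact permutation p of 0.333 is the smallest possible. The calls behind the levels were few, with 5 to 19 reads per site. They were 44 of 60 (Wilson 95% interval 61.0% to 82.9%) and 28 of 41 (53.0% to 80.4%) methylated in swim-up sperm, and 24 of 85 (19.8% to 38.6%) and 17 of 45 (25.1% to 52.4%) in HRCS. The intervals of the HRCS libraries lie below those of the swim-up libraries, with the nearest ends at 52.4% and 53.0%. Because the 6 sites share reads, these intervals are too narrow, and nothing is read from their separation. These sites were singled out after their values were seen, as the group with the largest difference of 31. The window that holds 5 of them, 110683801 to 110684000, had 74.9% ± 4.12 in swim-up sperm and 36.5% ± 10.01 in HRCS, a difference of -38.4 points. In edgeR's quasi-likelihood test its adjusted p was 0.759 (0.000748 unadjusted). Of the windows of the series, 17 of 316993 (0.00536%) differed by at least as much in either direction. These windows were not matched to it in level or number of calls, so the share does not measure how unusual it is.

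Listed sites next to that place had too few reads to be used. The 8 sites in the 300 bp after it held 18 of 31 methylated calls in swim-up replicate 1 (58.1%, interval 40.8% to 73.6%) but only 3 calls, all methylated, in swim-up replicate 2. In HRCS they held 34 of 74 (45.9%, interval 35.1% to 57.2%) and 9 of 32 (28.1%, interval 15.6% to 45.4%). There the interval of swim-up replicate 1 overlaps those of both HRCS libraries. The 1 unused site within the place had 3 of 6 and 3 of 3 methylated calls in swim-up sperm, against 7 of 16 and 2 of 8 in HRCS. The 1 site in the 300 bp before it had 2 of 5 and 3 of 3, against 3 of 4 and 2 of 3, so that swim-up replicate 1 was the lowest library there. The 6 sites also account for much of the gap in the portion before the Dlk1 start, where the 40 sites averaged 16.0% and 13.2% in swim-up sperm, against 7.94% and 8.74% in HRCS (-6.24 points, exact permutation p = 0.333). With a minimum of 10 reads per site, which none of the 6 met, the difference of that portion was -0.0161 points. The 34 sites of that portion nearest to the gene, from 110687691 to 110688932, were at 5.62% and 3.95% in swim-up sperm, against 4.69% and 3.20% in HRCS, with overlap.

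**Figure D5:**
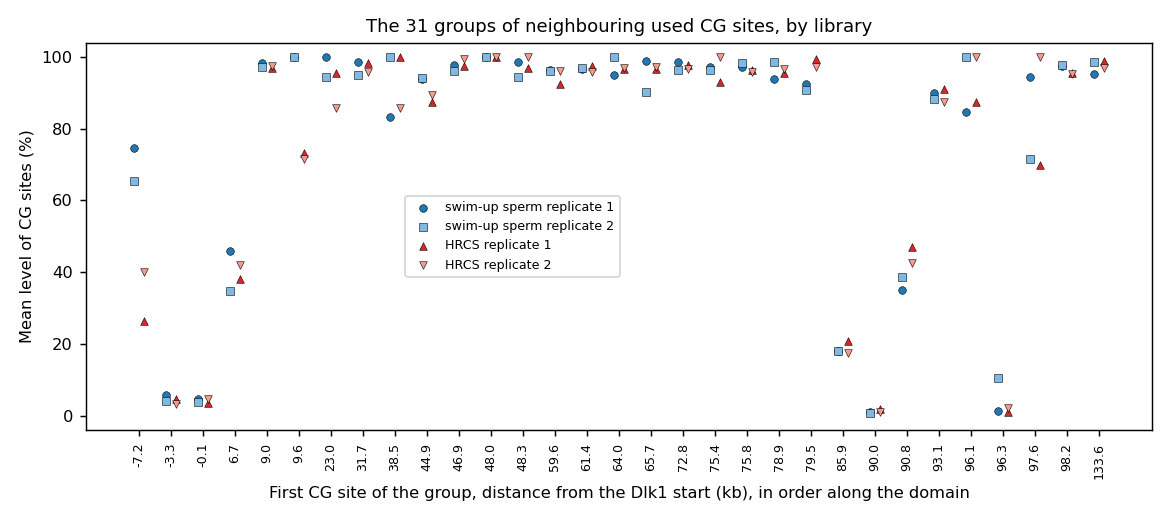
Mean methylation level (%) of each of the 31 groups of neighbouring used sites, in order along the domain, with 1 point per library; the axis gives the distance of the first site from the Dlk1 start (kb). The fractions part widely in the first group, at 74.6% and 65.6% against 26.4% and 40.1%, and at a single site 9.57 kb after the start, and differ by 8.04 points or less in the others.

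Among the remaining windows whose libraries did not overlap, the largest differences were much smaller. The window 110698401 to 110698600, at the far end of the intermediate stretch of Dlk1, had 81.0% and 84.3% in swim-up sperm, against 71.6% and 72.4% in HRCS (-10.6 points, edgeR adjusted p = 1). The window 110735801 to 110736000, with 3 sites and 18 to 57 calls, had 91.9% and 92.3% against 86.5% and 87.8%. In the other direction, 110770801 to 110771000, just past the control region, had 82.7% and 88.0% in swim-up sperm, against 98.6% and 95.1% in HRCS (11.5 points, edgeR adjusted p = 1). The window 110784201 to 110784400 had 88.8% and 82.4% against 95.2% and 97.6% (10.7 points, edgeR adjusted p = 1), and 110781801 to 110782000 had the 3 sites given above, 8.04 points higher in HRCS. The single site 110700600, in a group of its own, was methylated in all 7 and 11 reads in swim-up sperm and in 11 of 15 and 5 of 7 reads in HRCS. None of these windows passed the adjusted threshold.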

How the data were processed

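DNA methylation was measured by TGBS (SureSelect capture, post-bisulfite adaptor tagging, single reads) in 2 swim-up sperm and 2 HRCS libraries. The authors mapped reads to mm9 with Bmap and deposited, per library, the count of methylated reads and the count of all reads at each CG site and strand, with no normalization and no column names. Of the 2 count columns the smaller was taken to hold methylated reads, which puts CG-dense windows near 0 and the H19 control region, methylated in the male germline, at 97.1%. Removal of duplicate reads is not given in the sources used here. The libraries held 71379227 to 89403347 calls, 88.7% to 89.6% of them on the minus strand.

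Both strands of a site were added. Region levels are unweighted means over CG sites in a library, given as mean ± SD over libraries. Fractions were compared with two-sided exact permutation tests over libraries, and regions within a library with sign-flip tests. Windows of 200 bp with at least 3 sites of 5 or more reads were tested with edgeR 4.0.16 (quasi-likelihood test, with methylated and unmethylated calls per library, a term for each library and a single dispersion) in R 4.3.3, adjusted by Benjamini-Hochberg over all windows, with limma 3.58.1 and Fisher's exact test as alternatives. The script was tested on simulated data. Gene starts were placed in mm9 by the CG spacing of RefSeq promoter sequences (GRCm38.p6), and no coordinates were converted. Levels and figures were made in Python 3.11.15 (matplotlib 3.10.9, numpy 2.4.6, scipy 1.17.1, pandas 2.3.3). Wilson intervals are at 95%, and the limit that a count of 0 allows is 3 counts.

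The domain, its regions and the lists were chosen with earlier results of these data known, and the H19 region's coordinates come from general knowledge of the locus. Named in each region were the sites of lowest and highest mean level, the ends of runs of at least 5 sites at 80% or more or at 20% or less, windows past the adjusted p, and the 3 largest increases and 3 largest decreases among windows whose fractions did not overlap. Alternatives were a minimum of 10 or 20 reads, pooled calls, minus strand rows, other region edges, a limit of 200 reads, other windows, a replicate block and leaving out each library. The limit of 200 reads removed no site of the domain or of the H19 control region, so it could not change any level.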

Additional observations from a re-analysis of the deposited data

How the results depend on the processing

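The level of the control region and its height above both gene starts and the rest kept their direction under every alternative run, with 92.8 to 96.5 points above the Dlk1 start, 81.6 to 89.4 above the Meg3 start and 29.4 to 48.6 above the rest. Small gaps between fractions changed sign. HRCS minus swim-up sperm for the whole domain was 0.0812 points with 10 reads per site, 0.513 with 20 and 0.919 with pooled calls, and -1.18 to 0.236 when 1 library was left out. For the rest it was 0.0784, 0.852 and 0.703, and -2.06 to 0.382. For the Dlk1 start it was 0.0494 with 10 reads, 0.140 with pooled calls and 0.0171 on the minus strand, and -0.297 to 0.248. Leaving out 1 library also gave -0.563 to 3.62 for the Meg3 start, -2.59 to 1.78 between the Dlk1 start and the control region, -0.103 to 2.15 between there and the Meg3 start, -5.82 to 5.36 in the intermediate stretch of Dlk1, -2.49 to 1.05 for the height above the rest between fractions and -0.486 to 0.101 against the H19 control region (0.112 with narrower regions). With 20 reads the gap was 3.30 before the Dlk1 start, 1.34 between it and the control region and 3.02 in the intermediate stretch. After the Meg3 start it was 0.535 with 10 reads and 2.38 with pooled calls. The cause of these reversals was not tested.

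Levels moved with the choice of sites and with weighting by calls. The domain averaged 42.1%, 40.6%, 43.3% and 44.3% with 10 reads, 20 reads, pooled calls and minus strand rows, and the Meg3 start 11.8%, 13.9% and 12.4% in the first 3 of these and 15.4% with 2000 bp on either side. The Dlk1 start was at 0.659% with 500 bp and 4.14% with 2000 bp, and the rest at 48.6% and 67.5%, and at 56.3% and 55.4% with 10 and 20 reads. The portions of the rest moved more. With 20 reads the portion between the Dlk1 start and the control region was at 46.0% instead of 67.7%. Between the control region and the Meg3 start it was 86.3% instead of 67.7%, and after the Meg3 start 63.7% instead of 53.5%. Before the Dlk1 start the level was 2.87% with 10 reads instead of 11.5%. Pearson's r was 0.989 and 0.993 with 10 and 20 reads.

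With 10 reads per site none of the 6 sites before Dlk1 that differed most was left. Their gap was -43.7 to -29.9 points when 1 library was left out. Fisher's exact test on pooled calls, which takes calls as independent, passed 1 window of the domain, the one that holds them (adjusted p = 1.66e-05), and 2397 of all windows. edgeR passed 0 in the domain with 10 reads per site, with windows of 500 and 1000 bp, with at least 1 or 5 sites per window and with each library left out, and limma passed 0 at the settings of the report. Whether replicate numbers pair libraries across fractions is not given in the sources used here. The difference between replicates 1 and 2 in swim-up sperm and that in HRCS correlated at -0.00176 over all windows and -0.198 over the domain windows. This cannot decide on pairing, because paired libraries without a shared effect on levels could also give a value near 0. With the replicate block, 0 windows of the domain and 9 of all windows passed. The differences of regions, for example -1.56 points in the control region, cannot change with the block, because each fraction has both replicate numbers. With the block, 0.5 is the smallest p possible for them.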
